A study of Mus musculus with 42 samples.

Results

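The genes described here encode the proteins of the mitochondrial ribosome. They were chosen by name, as every gene whose annotated symbol begins with Mrpl (large subunit) or Mrps (small subunit) followed by a number (counts by subunit follow the symbol, although the proteins of Mrps18a and Mrps30 sit in the large subunit), and each gene was read from 1 probe, the one with the highest mean log2 signal over the arrays of its run. In all, 77 genes matched, and 75 of them were on both array types used. The Mouse WG-6 arrays of the first run held 76 of them among 19057 genes with a single symbol, and the MouseRef-8 arrays of the second run held 76 among 16593. Mrpl44 was on the WG-6 arrays alone and Mrps36 on the MouseRef-8 arrays alone. A gene was tested where its probe was detected on at least 2 arrays, with detection meaning a detection p (the chance that background gives such a signal) under 0.05. This left 74 genes in the first run, 46 of the large and 28 of the small subunit, and 72 in the second, 44 of the large and 28 of the small subunit. Mrpl19 and Mrpl32 were left out of both runs and Mrpl21 and Mrps36 of the second, and these have no values below.

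Mitochondria keep their own ribosomes, which translate the few messages of the mitochondrial genome into core subunits of the respiratory chain and the ATP synthase. The ribosomal RNAs come from mitochondrial DNA, while all of the ribosomal proteins are encoded in the nucleus, made in the cytosol and imported. Many of these proteins have a counterpart in bacterial ribosomes and the others are found in mitochondria only. Pluripotent cells of the mouse embryo use oxidative phosphorylation as well as glycolysis, and the supply of these proteins is one of the conditions for respiratory capacity.

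The study followed the inner cell mass (ICM) of mouse blastocysts at embryonic day 3.5 as it gives rise to embryonic stem cells (ESCs) on gelatin, in serum-free N2B27 medium with R2i, which joins the MEK inhibitor PD0325901 (1 µM) with the TGF-β receptor inhibitor SB431542 (10 µM), and with LIF (1000 U/ml). The first run used BALB/c embryos and 3 arrays per group. Its groups were ICMs isolated by immunosurgery (ICM-BALB/c), outgrowths of whole blastocysts after 3, 5, 7 and 9 days in R2i (BO-3 to BO-9), and ESCs in R2i (ESC-BALB/c). By the study's methods these ESCs were of a later passage than any of the second run. The second run used B6 x C3H hybrid embryos, as labelled, and 2 arrays per group. The methods list further crosses for that run, and which array used which is not given in the sources used here. Its groups were isolated ICMs (ICM-hybrid) and outgrowths of isolated ICMs after 0.5, 1, 2, 3 and 5 days in R2i (IO-0.5 to IO-5). Outgrowths after 1 and 3 days with SB431542 and LIF but without PD0325901 (SBIO-1 and SBIO-3) were the study's negative controls. The ESCs in R2i were at passages 2, 4 and 15 (P2, P4 and P15). A further 2 MouseRef-8 arrays held BALB/c ICMs. Each outgrowth replicate was a pool of outgrowths. Whole blastocysts bring trophectoderm into the BO groups, while immunosurgery is meant to strip it from the ICM. BO-3 replicate 1 was left out, so BO-3 has 2 arrays. It is missing from the study's own plot of correlations between these arrays, and no reason was found in the methods. That array detected 26.2% of probes and 68 of the 74 tested genes, the fewest of both in the run.

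Values are log2 intensities after background correction and quantile normalization within each run, and they are compared between arrays for the same probe only. In the first run 28.9% to 35.4% of all probes were detected on the arrays used. In the second, the arrays of ICM-hybrid were dim, with 24.2% and 18.0% of probes detected against 33.0% to 45.6% on the other arrays, and of the 72 tested genes they detected 67 and 55. Of the tested genes, 70 were detected on every array of the first run and 55 on every array of the second. A gene is called here at a difference of 2-fold or more with a limma p, adjusted by the Benjamini-Hochberg method over all genes tested, of at most 0.05 in the first run and 0.01 in the second.

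By array medians, the mitoribosomal genes of the first run stood highest in the ICM, lowest in the outgrowths and between these in the ESCs. The median of the 74 genes on an array was 9.72 ± 0.13 in ICM-BALB/c (SD, n = 3), 8.80 ± 0.03 in BO-3 (n = 2), 8.94 ± 0.05 in BO-5 (n = 3), 8.80 ± 0.04 in BO-7 (n = 3), 9.05 ± 0.20 in BO-9 (n = 3) and 9.25 ± 0.08 in ESC-BALB/c (n = 3). Every ICM array, at 9.61 or more, lay above every other array of the run. The array medians of BO-9 ran from 8.84 to 9.25 and overlapped those of both BO-5 and the ESCs. The small-subunit genes alone did not follow this order, with array medians of 9.11 to 9.29 in the ESCs and 9.23 to 9.61 in the outgrowths. For the large-subunit genes these were 9.13 to 9.33 and 8.66 to 9.15. Gene by gene, 41 of the 74 had their highest group mean in ICM-BALB/c and 28 in ESC-BALB/c, while 28 had their lowest in BO-3 and 26 in BO-7. Such counts were taken for the members only, so they do not set the members apart from other genes. In bulk RNA, a lower level in all cells and a smaller share of cells with a high level cannot be told apart.

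**Figure D1:**
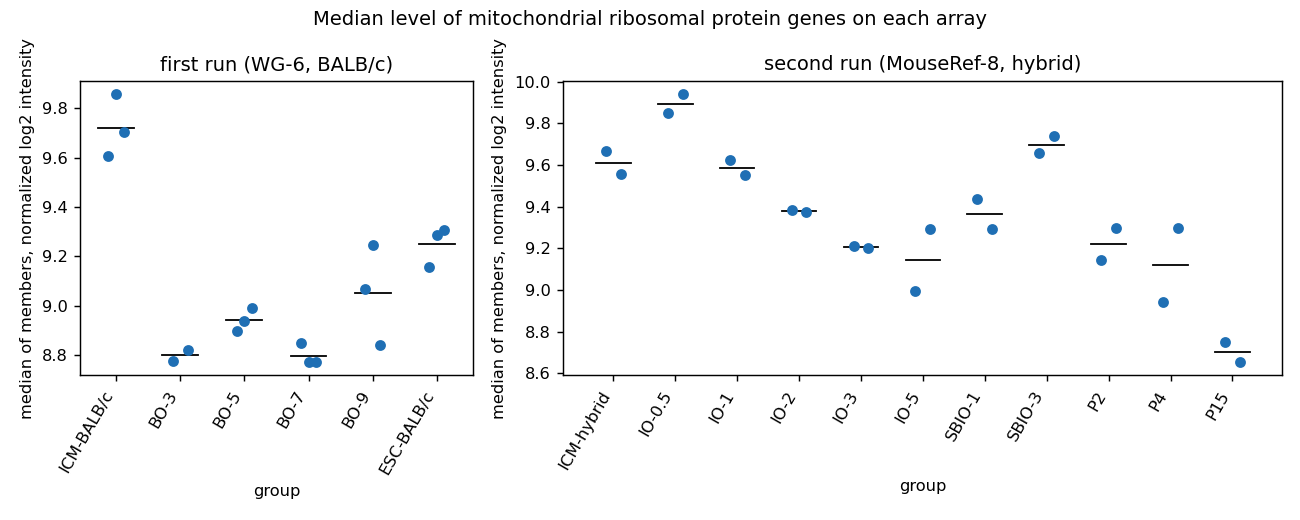
Median normalized log2 intensity of the mitochondrial ribosomal protein genes on each array (points) with the mean of each group (line), for the 6 groups of the first run at left and the 11 groups of the second at right. ICM-BALB/c stands at 9.72 above all other groups of its run, and P15 stands at 8.70, the lowest of the second run. The vertical scales of the 2 runs are not comparable.

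By its median, the fall from the ICM to BO-3 was the widest shift among the comparisons of the first run. In BO-3 against ICM-BALB/c, 12 of 74 genes were called lower (16.2%) and 0 higher, where 7.48% of all 11450 genes tested were called lower and 13% higher. By the adjusted p alone, 42 genes (56.8%) were lower and 0 higher, against 20.1% and 21.9% of all genes. At an unadjusted limma p under 0.05 it was 46 and 0, a limit for which no share of all genes is given. The median difference of the members was -0.55 on the log2 scale, with 65 of 74 below 0, while the median of all genes was -0.02. With arrays centred on their median in place of quantile normalization, the members' median was -0.06 and that of all genes 0.26. The members still lay below the typical gene, but 0 were then called, where 2333 of all genes were called higher and 351 lower. The 46 large-subunit genes (median -0.58, 9 called lower) and the 28 small-subunit genes (median -0.50, 3 called lower) had medians close to each other, as had the 44 genes with a bacterial counterpart (median -0.55) and the 30 specific to mitochondria (median -0.55).

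Mrpl40, a large-subunit protein specific to mitochondria, had the largest fall. Its level was 10.12, 10.50 and 10.04 on the ICM-BALB/c arrays and 8.75 and 8.92 on those of BO-3. The groups did not overlap, and the difference was -1.39 (SE 0.23, adjusted p = 9.51e-05). It stayed between 8.71 and 9.81 on all arrays of BO-5, BO-7 and BO-9 and stood at 9.72, 9.64 and 9.85 in the ESCs. Mrpl55, the mitochondrial form of a bacterial large-subunit protein, was at 7.27, 7.95 and 7.80 in the ICM and at 6.25 and 6.40 in BO-3. All ICM arrays were above both BO-3 arrays, by -1.35 for BO-3 less ICM (SE 0.23, adjusted p = 0.000174). Mrpl46, another large-subunit protein specific to mitochondria, went from 9.60, 9.95 and 9.79 to 8.60 and 8.34, without overlap, a difference of -1.31 (SE 0.18, adjusted p = 1.91e-05). Mrpl12, the protein of the flexible stalk that recruits translation factors, fell as well, from 9.93, 10.12 and 9.81 to 8.81 and 8.74 (difference -1.18, SE 0.16, adjusted p = 1.23e-05). In the same way Mrpl44, whose fold resembles ribonuclease III, went from 8.06, 7.94 and 8.01 in the ICM to 6.72 and 7.10 in BO-3 (difference -1.09, SE 0.24, adjusted p = 0.00131). The other called genes were Mrps21, Mrps22, Mrps11, Mrpl24, Mrpl30, Mrpl21 and Mrpl58, at -1.00 to -1.21. Mrpl58 is a peptidyl-tRNA hydrolase that became part of the large subunit. With the BO-3 array that was left out put back, 6 genes were called lower, Mrpl40 not among them, and the median was -0.45.

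Between days 3 and 9 the blastocyst outgrowths changed little in these genes. In BO-9 against BO-3, 0 of 74 genes were called, where 5.42% of all genes were called in either direction. By the adjusted p alone 1 gene was higher and 0 lower, against 5.95% and 6.13% of all genes. At an unadjusted limma p under 0.05 it was 17 and 0, but without a share of all genes at that limit these counts cannot be judged. The median difference was 0.22, with 55 of 74 above 0, against 0.02 for all genes. Under median centring it was -0.05 against -0.10, so the sign turned while the members stayed above the typical gene.

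From BO-9 to the ESCs part of the set rose again. In ESC-BALB/c against BO-9, 6 of 74 genes were called higher and 1 lower, where 4.79% of all genes were called higher and 8.86% lower. By the adjusted p alone 25 were higher (33.8%) and 5 lower (6.76%), against 16.1% and 19% of all genes. The median difference was 0.31 against 0.01 for all genes, and 0.16 against -0.08 under median centring. At that scaling 3 members were called higher and 1 lower, beside 324 of all genes called higher and 1175 lower. Of the 6 called higher after quantile normalization, 5 encode large-subunit proteins. Without BO-9 replicate 3 the count of genes called higher was 4, and without ESC-BALB/c replicate 2 it was 9.

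Mrpl9, a large-subunit protein with a bacterial counterpart, stood at 7.05, 7.32 and 7.68 in BO-9 and at 8.73, 9.15 and 9.01 in the ESCs. The groups were apart, and the difference was 1.61 (SE 0.31, adjusted p = 0.000601). Its ICM arrays were spread widely, at 8.73, 8.22 and 7.15. Mrpl53, a large-subunit protein specific to mitochondria, had 5.96, 5.88 and 6.47 in BO-9 and 7.54, 7.81 and 7.62 in the ESCs (difference 1.56, SE 0.21, adjusted p = 1.51e-05), and no ICM array, at 7.04, 6.98 and 6.88, reached the ESC values. Mrpl44 rose from 6.73, 6.65 and 7.39 to 7.99, 8.23 and 8.31 (difference 1.25, SE 0.21, adjusted p = 0.000188), so that it returned to the level of the ICM arrays. Mrpl22, whose bacterial counterpart lines the tunnel through which the new chain leaves, had the widest range of group means of the run, 1.71. It went from 6.18 and 6.13 in BO-3 to 6.83, 6.96 and 6.54 in BO-9 and 7.82, 7.98 and 7.78 in the ESCs, with the ICM at 6.65, 6.99 and 7.11. Mrps6, a small-subunit protein, ran the other way. It held 10.41, 10.45 and 10.15 in BO-9 and 9.08, 8.90 and 8.85 in the ESCs, a difference of -1.40 (SE 0.17, adjusted p = 5.41e-06), and all arrays of the ICM and the other outgrowths lay at 9.86 or more. Mrpl55 (1.13) and Mrps12 (1.08) were the remaining genes called higher.

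The ESCs and the ICM, which share arrays with the comparisons above, had members called in both directions. With the 2-fold limit the shares called were below those of all genes. In ESC-BALB/c against ICM-BALB/c 1 of 74 genes was called higher (1.35%) and 5 lower (6.76%). Of all genes 13.9% were called higher and 11.7% lower. By the limma adjusted p alone 18 were higher and 20 lower (24.3% and 27%), near the 26.2% and 23.2% of all genes. The median difference was -0.14 against 0.0043 for all genes, and -0.03 against 0.07 under median centring. The 1 gene called higher became 3 without ICM-BALB/c replicate 2 and 2 without ICM-BALB/c replicate 1, ICM-BALB/c replicate 3 or ESC-BALB/c replicate 1. With the mean of all kept probes of a gene, 1 was called higher and 1 lower, and Mrpl43 (-0.96) and Mrps10 (-0.20) were not called. Beside this, the 58 cytosolic ribosomal protein genes had a median of 0.53, with 14 called higher and 1 lower, whereas in BO-3 against ICM-BALB/c their median was -0.14, with 0 called higher and 2 lower.

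Mrps12, which sits at the decoding centre of the small subunit, was the gene called higher. It had 10.07, 10.69 and 10.54 in the ICM and 11.87, 11.53 and 11.48 in the ESCs, and between 9.77 and 10.71 on every outgrowth array. All 3 ESC arrays stood above all other arrays, and the difference from the ICM was 1.20 (SE 0.19, adjusted p = 4.58e-05). A second probe of the gene gave 1.67. Mrpl43, a large-subunit protein specific to mitochondria, was at 9.56, 9.80 and 9.64 in the ICM and at 8.51, 8.38 and 8.29 in the ESCs, below all outgrowth arrays (difference -1.28, SE 0.14, adjusted p = 5.35e-07). A second probe gave -0.65. Mrps6 differed by -1.27 (SE 0.17, adjusted p = 5.83e-06), from 10.24, 10.36 and 10.04 in the ICM to the ESC values given above. Mrps10 went from 8.96, 9.43 and 9.15 to 7.94, 7.99 and 7.97 (difference -1.21, SE 0.16, adjusted p = 7.01e-06), but its other probes gave -0.51 and 1.13, so the gene has no settled direction. Mrps7 (-1.21) and Mrpl48 (-1.15), which the rule for named genes did not pick and which are added here after their values were seen, were called lower too, each with other probes of the same sign.

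**Figure D2:**
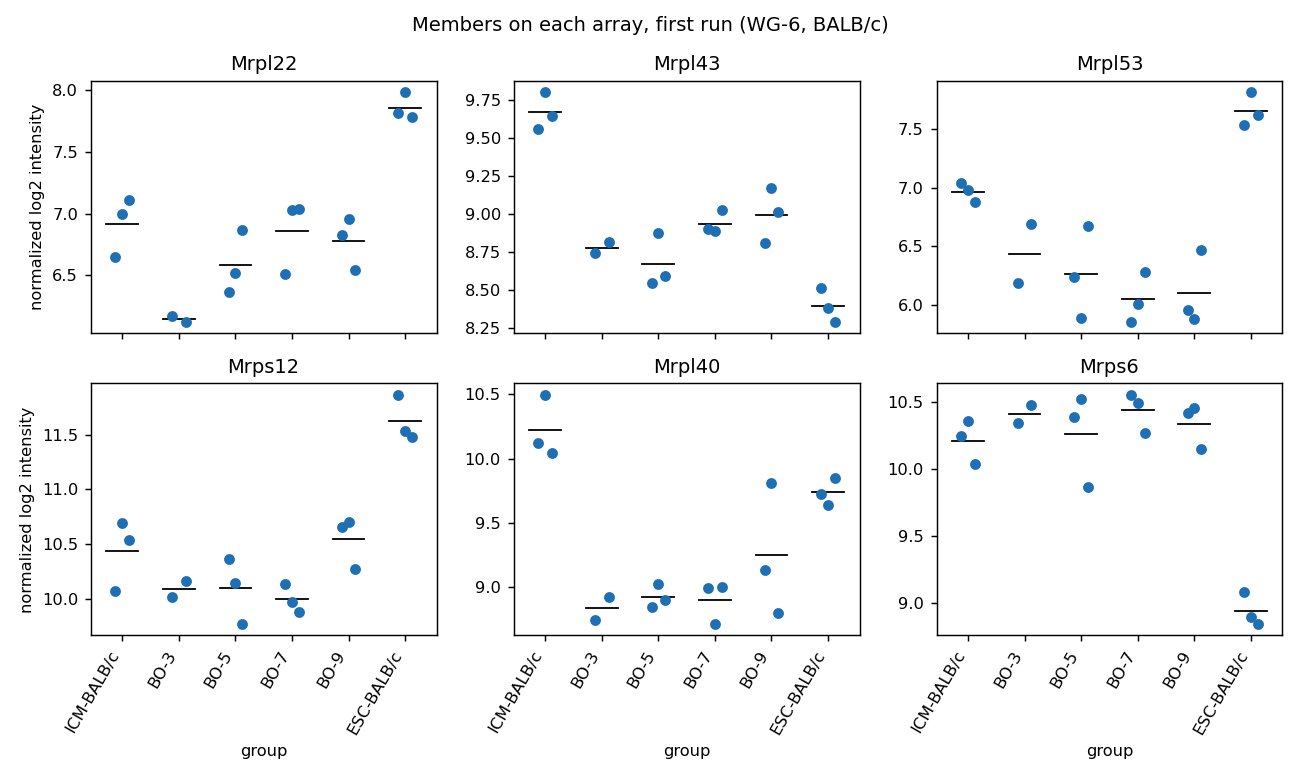
Normalized log2 intensity of 6 mitochondrial ribosomal protein genes on each array of the first run (points, filled where detected) with the group mean (line). The ESC arrays of Mrps12 (11.48 to 11.87) and Mrpl22 (7.78 to 7.98) lie above all other groups, those of Mrps6 (8.85 to 9.08) and Mrpl43 (8.29 to 8.51) below, and Mrpl40 is highest in the ICM (10.04 to 10.50).

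Markers of other cell types moved across the same groups, and their part in these differences was not tested. The log2 of the summed level of 9 trophectoderm markers was 14.50 to 14.63 in ICM-BALB/c, 14.57 to 15.06 in BO-3, 14.26 to 14.48 in BO-9 and 13.72 to 13.87 in the ESCs. For 7 primitive endoderm markers it was 13.69 to 13.89, 14.18 to 14.38, 13.36 to 13.67 and 8.80 to 11.40. For 9 epiblast markers it was 15.41 to 15.44, 14.88 to 14.92, 15.53 to 15.68 and 15.39 to 15.44. All 9 trophectoderm markers were detected in the ICM and in all outgrowths, so the arrays of the isolated ICMs also held signal of that lineage, and 6 to 8 were detected in the ESCs. Each sum is weighted to its brightest markers and can hide markers that move apart. In BO-3 against ICM-BALB/c, the trophectoderm markers Plac1 (4.84), Elf5 (2.31) and Krt18 (1.27) were called higher and Cdx2 (-1.25) lower. Among primitive endoderm markers, Col4a1 (2.26), Lama1 (1.86) and Sox7 (1.13) were called higher and Gata6 (-1.83) lower. The epiblast markers Pou5f1 (-1.65) and Tfcp2l1 (-1.41) were called lower. In ESC-BALB/c against BO-9, Plac1 (-4.61), Krt18 (-3.59), Cdx2 (-3.58), Krt8 (-3.15), Elf5 (-2.37), Eomes (-1.88) and Gata3 (-1.39) were called lower. Fgfr2 and Tfap2c were not called.

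Promoters of genes that moved apart from one another are shown here, since the genes share some promoter motifs and yet differed in direction. RefSeq windows (GRCm38.p6) of 300 bases, from 250 before to 50 after each annotated start, were found for 68 of the 77 genes, in 74 windows. The binding motif of ETS factors such as GABP, searched as CCGGAAG on both strands, was in 26 of the 74 windows (35.1%) against 8.86% of all 32851 windows in the table. The core of the NRF1 motif, GCATGCGC, was in 8 (10.8% against 2.71%) and the YY1 motif, AAGATGGC, in 12 (16.2% against 2.75%). At least 1 of the 3 was in 38 windows (51.4% against 13.3%). The E-box CACGTG (9.46% against 7.15%) and CCAAT (39.2% against 37.4%) were about as frequent as in all windows, and GGGCGG was in 52.7% against 35.7%. A match is a run of letters and not a shown site. The stretches below run 5′ to 3′ on the gene's strand, from 120 bases before to 30 after the start, with ETS and NRF1 core matches in capitals. They lie at chr11:58171544-58171693 (plus strand, Mrpl22), chr19:45006413-45006562 (minus strand, Mrpl43), chr6:83108988-83109137 (plus strand, Mrpl53), chr7:28741792-28741941 (minus strand, Mrps12) and chr3:94443216-94443365 (plus strand, Mrpl9).
Mrpl22: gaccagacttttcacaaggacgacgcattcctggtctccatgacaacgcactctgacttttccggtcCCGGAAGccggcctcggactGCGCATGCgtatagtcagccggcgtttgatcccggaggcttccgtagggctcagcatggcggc
Mrpl43: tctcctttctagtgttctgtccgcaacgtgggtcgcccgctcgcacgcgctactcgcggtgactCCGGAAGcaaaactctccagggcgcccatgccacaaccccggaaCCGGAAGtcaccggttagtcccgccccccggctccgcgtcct
Mrpl53: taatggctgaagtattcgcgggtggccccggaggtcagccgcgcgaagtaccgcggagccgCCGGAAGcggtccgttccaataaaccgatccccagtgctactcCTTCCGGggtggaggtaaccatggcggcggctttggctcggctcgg
Mrps12: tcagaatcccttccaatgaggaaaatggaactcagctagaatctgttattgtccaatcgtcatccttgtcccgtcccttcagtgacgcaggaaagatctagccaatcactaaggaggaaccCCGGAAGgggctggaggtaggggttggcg
Mrpl9: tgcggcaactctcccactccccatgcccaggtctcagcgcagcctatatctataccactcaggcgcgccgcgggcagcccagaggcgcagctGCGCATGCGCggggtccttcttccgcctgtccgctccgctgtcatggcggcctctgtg
Mrpl22, Mrpl53 and Mrps12, higher in the ESCs than in BO-9, and Mrpl43, lower in the ESCs than in the ICM, all held the ETS letters, with first bases at -53 (Mrpl22), -56 and -12 (Mrpl43), -59 and -16 (Mrpl53) and 2 (Mrps12) from the start. Mrpl9 held no ETS match in this stretch but overlapping NRF1 core matches on both strands, with first bases at -28 and -26, and Mrpl22 held an NRF1 core match at -33. Among windows with the ETS letters, 23 of 26 members' (88.5%) had a match that started no more than 100 bases before the start or after it, against 74.4% of all such windows.

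The transcript of Gabpa, the DNA-binding subunit of GABP, was called lower in BO-3 against ICM-BALB/c (-2.50, SE 0.15, adjusted p = 7.19e-10) and in the ESCs against the ICM (-2.46, SE 0.13, adjusted p = 8.34e-11), and that of its partner Gabpb1 in the latter (-1.43, SE 0.14, adjusted p = 1.97e-07). Of 8 nuclear regulators tested in the first run, 1 was called lower and 0 higher in BO-3 against the ICM. Of all genes 7.48% were called lower and 13% higher there. Among the other genes of mitochondrial translation in that comparison, 1 of 12 translation factors (Mtrf1l, a release factor, -1.13), 2 of 12 aminoacyl-tRNA synthetases (Ears2, -1.50, and Tars2, -1.14), 1 of 11 genes for the expression of mitochondrial DNA (Supv3l1, an RNA helicase, -1.39) and 0 of 14 ribosome assembly factors were called lower, and 0 of these were called higher. Their medians were -0.36, -0.45, -0.28 and -0.04, beside -0.55 for the ribosomal proteins. In the ESCs against the ICM these lists held calls in both directions. Of all genes 13.9% were called higher and 11.7% lower there. In both comparisons the counts in lists this short do not set them apart from all genes. Of the 8 regulators 1 was called higher (Esrrb, 1.73) and 2 lower, the GABP subunits. Of the genes for the expression of mitochondrial DNA 2 were called higher (Tfam, which packs that DNA, 1.18, and Tefm, 1.22) and 1 lower (Polg, its polymerase, -1.07), and of the assembly factors 2 were called higher (Tfb1m, 1.42, and Ddx28, 1.01) and 0 lower. Of the synthetases 2 (Ears2, -1.68, and Lars2, -1.13) and of the translation factors 2 (Mtif3, -1.08, and Taco1, -1.01) were called lower, and 0 of either higher.

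In the second run the array medians of the ribosomal proteins fell along the R2i course. They were 9.61 ± 0.08 in ICM-hybrid (SD, n = 2), 9.89 ± 0.06 in IO-0.5 (n = 2), 9.59 ± 0.05 in IO-1 (n = 2), 9.38 ± 0.01 in IO-2 (n = 2), 9.21 ± 0.01 in IO-3 (n = 2), 9.14 ± 0.21 in IO-5 (n = 2), 9.22 ± 0.11 in P2 (n = 2), 9.12 ± 0.25 in P4 (n = 2) and 8.70 ± 0.07 in P15 (n = 2). SBIO-1 stood at 9.36 ± 0.10 (n = 2) and SBIO-3 at 9.70 ± 0.06 (n = 2). The P15 arrays, at 8.65 and 8.75, lay below all others, and the IO-0.5 arrays, at 9.85 and 9.94, above all others. The arrays of IO-3, IO-5, P2 and P4 overlapped one another. Of the 72 genes, 22 had their highest group mean in IO-0.5 and 21 in ICM-hybrid, and 35 had their lowest in P15, again without counts over all genes to set beside these. These medians rest on quantile normalization of arrays that differ in brightness, and under median centring several of the differences below change sign, as given at each.

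**Figure D3:**
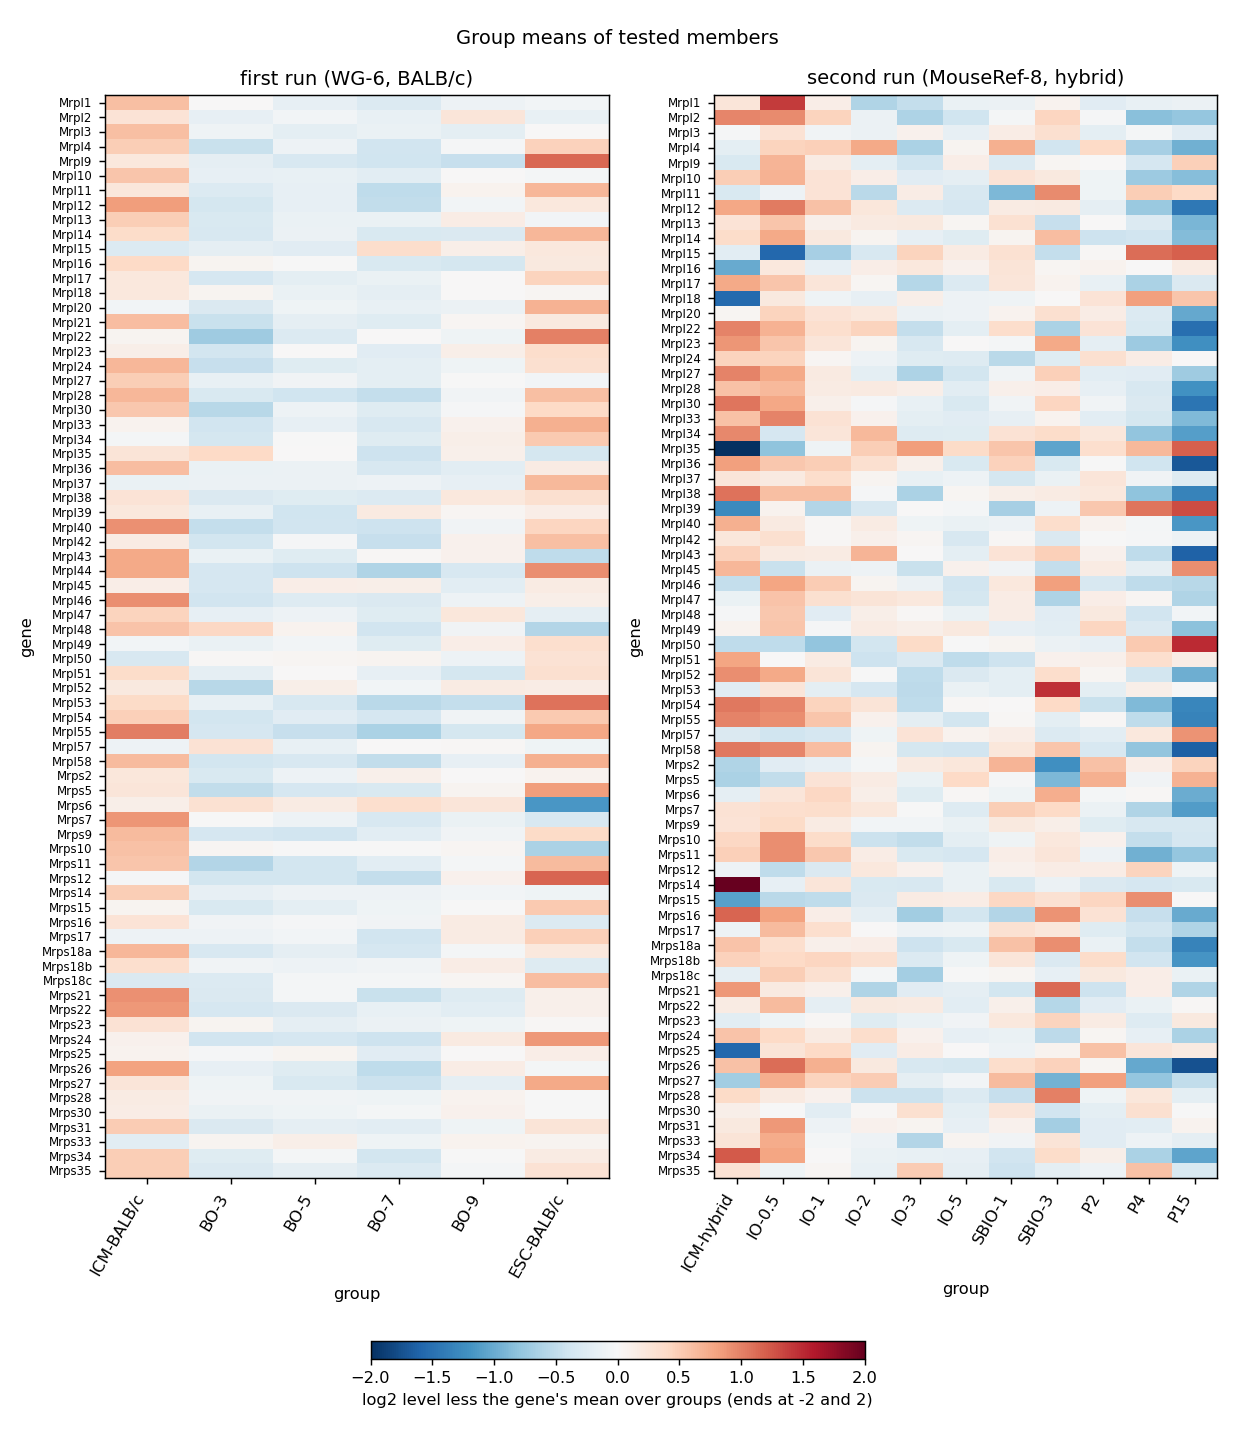
Group mean of each tested mitochondrial ribosomal protein gene less the gene's mean over the groups of its run (log2, colour scale from -2 to 2), with genes as rows and groups as columns, for the first run at left and the second at right. The ICM-BALB/c column is mostly above the gene means, and the P15 column holds the lowest value of 35 of 72 genes. No such count over all genes is given.

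The first 0.5 days in R2i brought few calls. In IO-0.5 against ICM-hybrid 4 of 72 genes were called higher and 2 lower, where 11.6% of all 10013 genes tested were called higher and 12.2% lower. The median difference was 0.10 against 0.04 for all genes, but 1.93 against 0.63 under median centring. At that scaling 17 members were called higher and 0 lower, beside 634 of all genes called higher and 0 lower. The comparison with the dim ICM-hybrid arrays thus depends on the scaling. Without ICM-hybrid replicate 1, 8 were called higher, without IO-0.5 replicate 2 it was 2, and without ICM-hybrid replicate 2, 4 were called lower. With only the 4 arrays compared in the fit, 0 were called. Trophectoderm markers moved with these groups, at 12.65 to 12.96 in ICM-hybrid, with 4 of 9 detected, and 14.05 to 14.14 in IO-0.5 (log2 of the summed level), and their part was not tested.

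Mrpl46 was at 8.89 and 8.59 in ICM-hybrid and at 9.78 and 10.23 in IO-0.5, a difference of 1.27 (SE 0.24, adjusted p = 0.000656) that was not called without IO-0.5 replicate 2. Mrpl1, the protein of the mobile stalk at the exit of the ribosome, stood at 9.48 and 9.49, then at 10.78 and 10.49 (difference 1.15, SE 0.20, adjusted p = 0.000367), and was at 9.20 and 9.55 at day 1. A second probe of Mrpl1 gave 0.09. Neither gene's arrays overlapped between the groups. Mrpl18 and Mrps25 were not detected on the ICM-hybrid arrays and were detected on both IO-0.5 arrays, at 7.46 and 7.77 and at 7.03 and 7.24, which sets bounds of at least 1.63-fold (Mrpl18) and 1.17-fold (Mrps25) against the lowest detected signal. Their fitted differences were 1.75 (SE 0.48, adjusted p = 0.00916) and 1.84 (SE 0.30, adjusted p = 0.000239), and neither was called without either IO-0.5 array. Mrpl34 went down from 8.94 and 9.00 to 7.64 and 7.69 (difference -1.30, SE 0.26, adjusted p = 0.00123), though median centring turned it to 0.78. Mrps14, outside the rule for named genes and chosen after its values were seen, was detected on 1 ICM-hybrid array (6.54) and on no IO-0.5 array. From IO-0.5 to IO-1, Mrpl1 was the 1 gene of 72 called, lower by -1.26 (SE 0.20, adjusted p = 0.00111), where 2.14% of all genes were called higher and 1.26% lower, and it was not called without IO-1 replicate 1, with the mean of all kept probes (-1.06) or with only the 4 arrays compared in the fit.

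From day 1 to day 5 and on to passage 2 no member was called. In IO-5 against IO-1 it was 0 of 72, where 5.78% of all genes were called in either direction, with a median of -0.37 and 56 of 72 below 0. The median of all genes was -0.01, and under median centring the members' median was 0.37 against 0.35, so the fall did not hold under that scaling. In P2 against IO-5 it was 0 of 72 against 1.32% of all genes, with a median of 0.20 (0.02 for all genes). By the limma adjusted p alone 0 genes passed in either comparison, while at an unadjusted p under 0.05 it was 1 higher and 13 lower in the first and 3 higher and 0 lower in the second. No share of all genes is given for the unadjusted limit. Without IO-5 replicate 2, 2 genes were called lower in IO-5 against IO-1, and without IO-5 replicate 1 the median of P2 against IO-5 was 0.04.

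Late ESCs had lower levels of many of these genes than early ESCs. In P15 against P2, 16 of 72 genes were called lower (22.2%) and 2 higher (2.78%), where 7.25% of all genes were called lower and 5.56% higher. The median difference was -0.43, with 54 of 72 below 0, against -0.0027 for all genes. Under median centring it was -0.04 against 0.09, with 0 members called, beside 137 of all genes called higher and 80 lower. The 44 large-subunit genes had a median of -0.59, with 12 called lower and 2 higher, and the 28 small-subunit genes one of -0.36, with 4 lower and 0 higher. The 58 cytosolic ribosomal protein genes had a median of -0.41, with 8 lower and 2 higher. With 1 array of either group left out, 4 to 6 members were called lower, as 4 without P2 replicate 2, 5 without P2 replicate 1, 6 without P15 replicate 1 and 4 without P15 replicate 2, and 0 or 1 higher, as 0 without P15 replicate 2 and 1 without any other. The median stayed between -0.50 and -0.40.

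Mrps26, a small-subunit protein specific to mitochondria, had the widest fall. It stood at 10.66 and 10.75 in IO-0.5, at 9.82 and 9.43 in P2, at 8.56 and 8.57 in P4 and at 7.76 and 7.93 in P15. The P15 arrays were below every other array of the run, and the difference from P2 was -1.78 (SE 0.25, adjusted p = 0.000257), with -1.26 from a second probe. Mrpl22 stood at 7.79 and 8.16 in P2 and at 6.10 and 6.29 in P15, without overlap (difference -1.78, SE 0.35, adjusted p = 0.00201), but was not called with any 1 of the 4 arrays left out. Mrps26 and Mrpl43 were called in each of these cases. In the first run Mrpl22 was highest in the ESCs, which the study's methods place at a later passage than P15. Mrpl43 was at 9.13 and 8.91 in P2, 8.22 and 8.61 in P4 and 7.41 and 7.22 in P15, so that the groups followed one another without overlap (difference of P15 from P2 -1.70, SE 0.21, adjusted p = 0.000127). Its second probe gave -1.85. Mrpl36, which holds a zinc-binding fold, was at 10.57 and 10.70 in P2 and at 9.22 and 8.67 in P15 (difference -1.69, SE 0.23, adjusted p = 0.000227). The other genes called lower, Mrps18b, Mrpl38, Mrpl30, Mrpl55, Mrpl34, Mrpl58, Mrps16, Mrpl12, Mrpl49, Mrpl40, Mrps18a and Mrpl28, were at -1.04 to -1.55.

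Mrpl50, a large-subunit protein specific to mitochondria, went the other way. It was at 10.71 and 10.78 in P2, 11.67 and 11.17 in P4 and 12.32 and 12.47 in P15, above every other array of the run (difference 1.65, SE 0.26, adjusted p = 0.000534), and was not called without P15 replicate 2. Mrpl57 was not detected in P2 and was at 5.52 and 5.57 in P15, at least 1.72-fold higher by the bound (fitted difference 1.10, SE 0.25, adjusted p = 0.00513), and it was not called with any 1 of the 4 arrays left out.

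**Figure D4:**
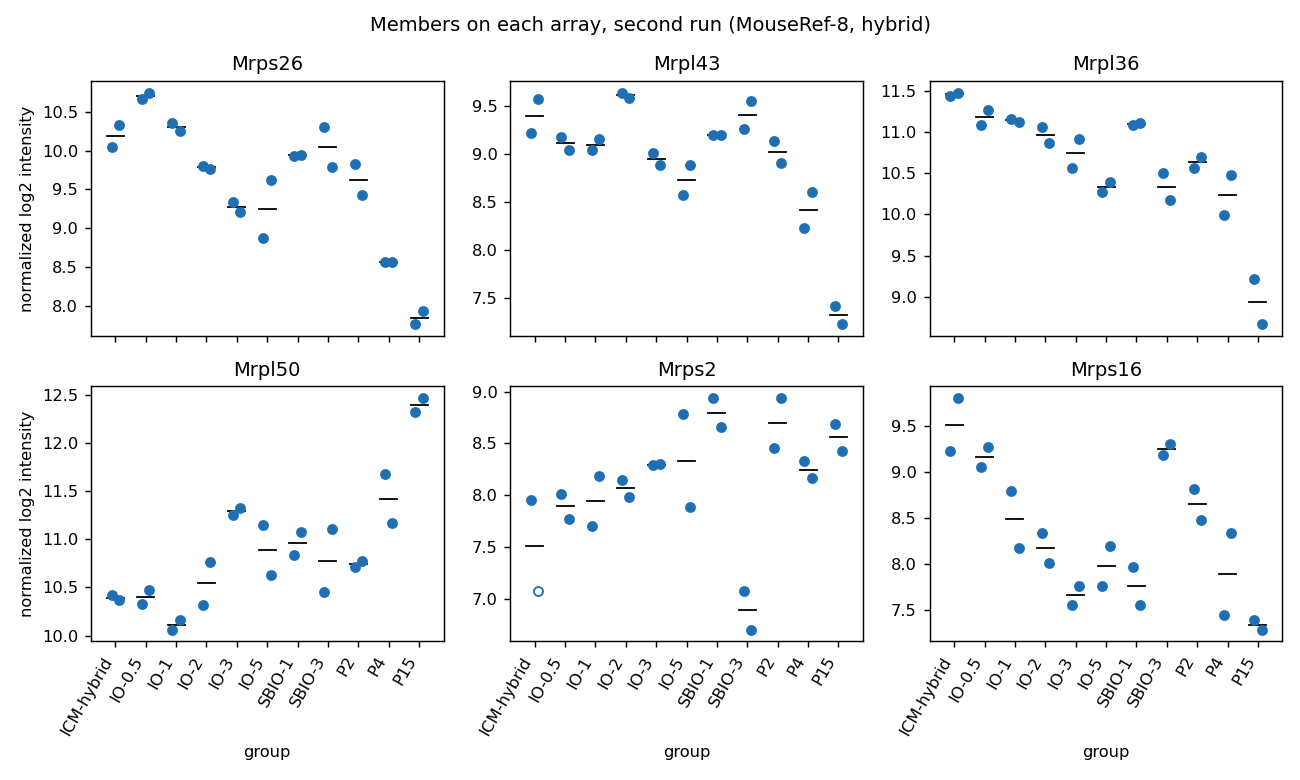
Normalized log2 intensity of 6 mitochondrial ribosomal protein genes on each array of the second run (points, filled where detected, open where not) with the group mean (line). Mrps26 and Mrpl43 are lowest in P15 (7.76 to 7.93 and 7.22 to 7.41) and Mrpl50 highest (12.32 to 12.47), while Mrps2 is lowest and Mrps16 high in SBIO-3 (6.70 to 7.07 and 9.18 to 9.30).

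P15 was also set against IO-5 and ICM-hybrid, with the same P15 arrays. In P15 against IO-5, 11 genes were called lower (15.3%) and 1 higher, where 6.99% of all genes were called lower and 4.99% higher. The median was -0.23 against -0.04 for all genes, and 0.36 against 0.12 under median centring. At that scaling 0 members were called, beside 134 of all genes called higher and 72 lower. Without IO-5 replicate 2 there was 1 lower, without P15 replicate 1 there were 2, without P15 replicate 2 there was 1, and without IO-5 replicate 1 there were 15. With only the 4 arrays compared in the fit 0 members were called, and the adjusted p was 0.0128 for Mrpl43, 0.015 for Mrpl50, 0.0187 for Mrpl36 and 0.0266 for Mrps26. Mrpl43, at 8.58 and 8.88 in IO-5, differed by -1.41 (SE 0.21, adjusted p = 0.000302), Mrps26, at 8.87 and 9.62, by -1.40 (SE 0.25, adjusted p = 0.00104) and Mrpl36, at 10.27 and 10.39, by -1.39 (SE 0.23, adjusted p = 0.000667). Mrpl50, at 11.15 and 10.63, differed by 1.50 (SE 0.26, adjusted p = 0.000832). In each of these 4 genes the P15 arrays given above were apart from those of IO-5. In the fit over all groups Mrpl43 was called with any 1 array left out, while Mrps26, Mrpl36 and Mrpl50 were not called without IO-5 replicate 2 or P15 replicate 2, nor Mrps26 without P15 replicate 1. The genes called higher numbered 2 without IO-5 replicate 1 and 0 without IO-5 replicate 2 or P15 replicate 2.

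In P15 against ICM-hybrid, 31 of 72 genes were called lower (43.1%) and 8 higher (11.1%), where 23.9% of all genes were called lower and 24.2% higher. The median was -0.70 against 0.04 for all genes, but 2.67 against 1.47 under median centring. At that scaling 57 members were called higher and 0 lower, beside 4901 of all genes called higher and 23 lower. The direction of the set thus follows the scaling here. Without P15 replicate 2, 5 were called higher, and without ICM-hybrid replicate 1, 11. With only the 4 arrays compared in the fit it was 2 higher and 21 lower. Other probes of the members had the sign of the probe used in 13 of 27 cases in this comparison, against 25 of 27 in P15 against P2. Mrpl58 was at 8.29 and 8.37 in ICM-hybrid and 5.69 and 5.59 in P15 (difference -2.68, SE 0.32, adjusted p = 5.41e-06), and 0.35 under median centring. Mrpl30 (-2.53, SE 0.28, adjusted p = 2.49e-06) and Mrpl36 (-2.51, SE 0.23, adjusted p = 4.22e-07) did the same, and turned to 1.34 and 1.38. Mrpl39 was at 6.67 on the ICM-hybrid array that detected it, and at 8.39 and 8.26 in P15 (difference 2.58, SE 0.45, adjusted p = 0.000153). Mrpl35 was detected on neither ICM-hybrid array and stood at 7.85 and 8.12 in P15, at least 2.10-fold higher, and Mrpl18, undetected there as well, at 7.78 and 8.16, at least 2.09-fold higher, though not called without ICM-hybrid replicate 1 or P15 replicate 2.

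Other genes of mitochondrial translation in P15 against P2 held calls in both directions. Of all genes 5.56% were called higher and 7.25% lower there, and counts in lists this short do not set them apart from all genes. Of 12 translation factors 2 were called higher (Mtrf1, a release factor, 1.83, and Guf1, 1.72) and 1 lower, Tufm, the elongation factor that brings tRNAs to the ribosome (-1.86, SE 0.25, adjusted p = 0.000211). Of 10 genes for the expression of mitochondrial DNA 1 was called lower, the mitochondrial RNA polymerase Polrmt (-1.76, SE 0.39, adjusted p = 0.00432), of 13 assembly factors 2 (Rbfa, -1.58, and Dhx30, -1.07), of 11 aminoacyl-tRNA synthetases 1 (Ears2, -1.04) and of 6 regulators 0. In these 4 lists 0 genes were called higher. Ptcd3, a small-subunit protein under another kind of symbol, rose by 2.12 (SE 0.32, adjusted p = 0.000411). Primitive endoderm markers were near background in both groups, with log2 of the summed level of 8 markers at 8.27 to 8.36 in P2 and 8.15 to 8.18 in P15, against 13.47 to 13.87 in IO-5, and 3 and 2 of the 8 detected. Trophectoderm markers were at 12.51 to 12.64 in P2, 12.87 to 13.01 in P15 and 13.09 to 13.16 in IO-5. Of these 9 markers, 3 were detected in P2, 2 or 3 in P15 and 7 or 8 in IO-5, so the sums rest on few. Epiblast markers were at 14.46 to 14.51, 14.42 to 14.44 and 14.34 to 14.45 in the same order. The part of these marker lists in the differences of P15 was not tested.

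The SB condition asks what the MEK inhibitor adds. At day 1 the ribosomal proteins gave no call, with 0 of 72 in IO-1 against SBIO-1 where 2.52% of all genes were called in either direction, and a median of 0.14 against -0.01 for all genes (-0.98 against -0.62 under median centring). At an unadjusted limma p under 0.05 it was 5 higher and 4 lower, with no share of all genes given for that limit. At day 3, in IO-3 against SBIO-3, 5 genes were called lower with R2i (6.94%) and 1 higher (1.39%), where 4.85% of all genes were called lower and 6.2% higher. The median was -0.30 against 0.01 for all genes, and 1.49 against 0.97 under median centring. At that scaling 10 members were called higher and 0 lower, beside 1137 of all genes called higher and 22 lower. Of the 5 called lower after quantile normalization, 4 encode proteins with the small-subunit symbol. With 1 array of either group left out 1 to 3 were called lower and 0 higher, as 3 without SBIO-3 replicate 1 and 1 without any other, and Mrpl53 was called in all 4 cases. With only the 4 arrays compared in the fit 0 were called, and Mrpl53 had an adjusted p of 0.0153.

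Mrpl53 was at 6.23 and 6.27 in IO-3 and at 8.32 and 8.18 in SBIO-3 (difference -2.00, SE 0.32, adjusted p = 0.00044). Mrps16 was at 7.56 and 7.76 in IO-3 and at 9.18 and 9.30 in SBIO-3 (difference -1.59, SE 0.31, adjusted p = 0.00195), and 0.32 under median centring. Mrps28 was at 10.09 and 10.18 in IO-3 and at 11.07 and 12.07 in SBIO-3 (difference -1.43, SE 0.35, adjusted p = 0.00816), and 0.45 under median centring. None of the 3 overlapped between the groups, and the Mrps28 arrays of SBIO-3 were a full log2 unit apart. Mrps21 (-1.36) and Mrps18a (-1.35), whose protein is found in the large subunit despite its symbol, were also called lower. Mrps2, the counterpart of a bacterial protein at the back of the small subunit, was at 8.29 and 8.30 in IO-3 and at 7.07 and 6.70 in SBIO-3 (difference 1.41, SE 0.32, adjusted p = 0.00578).

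Within the SB condition, SBIO-3 against SBIO-1 had 4 of 72 genes called higher and 1 lower. Of all genes 3.44% were called higher and 3.69% lower. The median was 0.10 against -0.03 for all genes, and -1.62 against -0.96 under median centring. At that scaling 0 members were called higher and 10 lower, beside 29 of all genes called higher and 742 lower. Mrpl53 was at 6.58 and 6.57 in SBIO-1 and rose by 1.67 (SE 0.32, adjusted p = 0.00243), Mrps21 was at 7.29 and 7.34 and rose by 1.50 (SE 0.30, adjusted p = 0.00316), and Mrps16 was at 7.97 and 7.55 and rose by 1.49 (SE 0.31, adjusted p = 0.00434). Under median centring these were -0.02, -0.30 and -0.38. Mrps28, outside the rule for named genes here, was the other gene called higher (1.47). Mrps2 was at 8.94 and 8.66 in SBIO-1 and fell by 1.91 (SE 0.32, adjusted p = 0.00095). With 1 array left out 0 or 1 were called higher, as 1 without SBIO-3 replicate 1 and 0 without any other, and Mrps2 was called lower without SBIO-1 replicate 2 or SBIO-3 replicate 1 only. With only the 4 arrays compared in the fit 0 were called.

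The change from day 1 to day 3 was compared between the conditions by an interaction term. It was called lower with R2i than with SB for 4 of 72 genes and higher for 2, where 4.37% and 5.8% of all genes were called. The median was -0.48 against 0.01 for all genes, and 2.44 against 1.63 under median centring. At that scaling 20 members were called higher and 0 lower, beside 2290 of all genes called higher and 17 lower. With any 1 of the arrays left out, 0 to 2 genes were called lower and 0 to 2 higher, with 0 of either without IO-1 replicate 1 or IO-3 replicate 1. The SBIO-3 arrays that carry these differences also had fewer probes detected than those of IO-3 (33.5% and 36.7% against 42.4% to 43.8%), more signal of trophectoderm markers (13.94 to 14.03 against 12.70 to 12.84, log2 of the sum over 9) and of primitive endoderm markers (15.00 to 15.01 against 13.90 to 14.08, over 8), and less of epiblast markers (13.36 to 13.58 against 14.02 to 14.07, over 9). Their part was not tested.

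BALB/c and hybrid ICMs were compared on MouseRef-8 arrays in a fit over all 24 arrays of that type. In the BALB/c ICMs 6 of 72 genes were called higher and 8 lower than in ICM-hybrid, where 16.8% and 16.5% of the 10102 genes tested were called. The median was -0.25 against 0.04 for all genes, and 2.48 against 0.93 under median centring. At that scaling 56 members were called higher and 0 lower, with no count over all genes given. With only the 4 arrays compared in the fit 0 were called. Mrpl35, undetected in ICM-hybrid, was at 6.58 and 8.19 in the BALB/c ICMs, at least 1.43-fold higher. Mrpl18, undetected there too, was at 8.06 and 8.38, which sets a bound of at least 2.55-fold. Mrpl39 differed by 2.12 (SE 0.45, adjusted p = 0.00102). Mrps16 was at 7.29 and 7.67 against 9.18 and 9.76 in ICM-hybrid in this fit (difference -1.99, SE 0.31, adjusted p = 7.59e-05), Mrps12 differed by -1.67 and Mrpl54 by -1.66, and under median centring these 3 were 0.91, 1.32 and 1.37. Without ICM-BALB/c replicate 2 of this array type 3 genes were called higher and Mrpl35 and Mrpl39 were not, without its replicate 1 5 genes were called lower, and without ICM-hybrid replicate 2 Mrpl39 was not called. Strain and the brightness of the ICM-hybrid arrays cannot be told apart here.

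**Figure D5:**
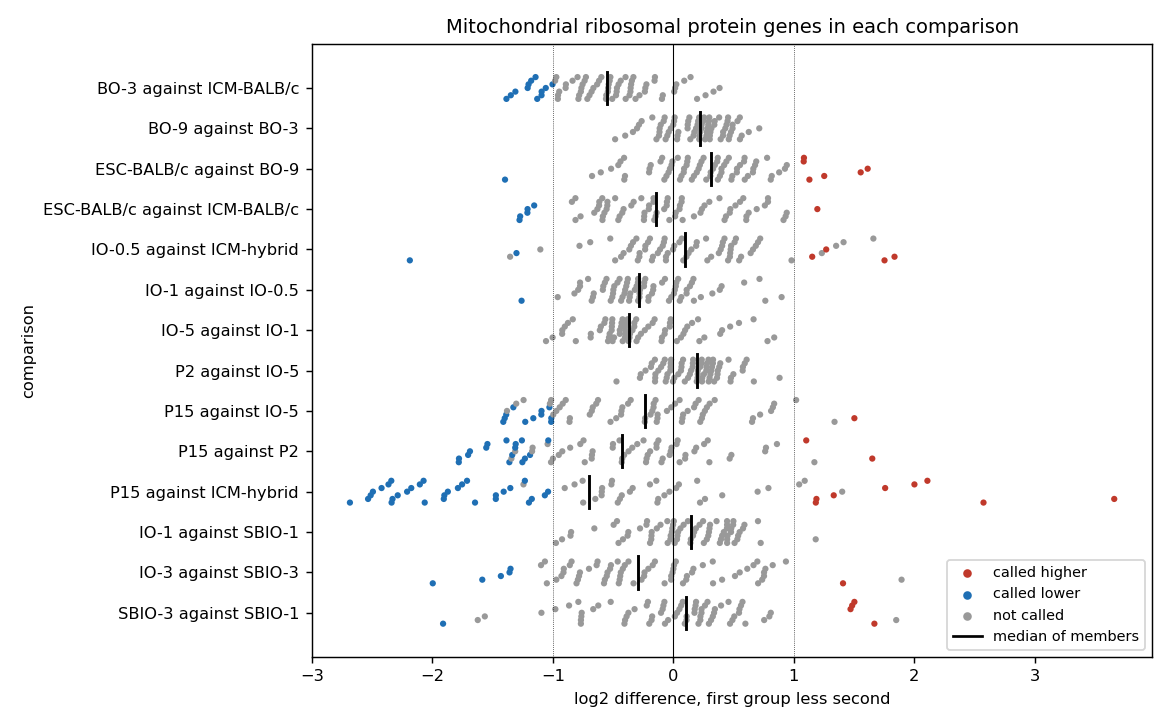
Log2 difference of each tested mitochondrial ribosomal protein gene (points) in comparisons of both runs, first group less second, coloured where called higher or lower, with the median of the genes (bar), a line at 0 and dotted lines at a 2-fold difference. In P15 against P2, 16 genes are called lower and 2 higher, and in BO-3 against ICM-BALB/c 12 are called lower and 0 higher.

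The genes differed in how far they moved. The range of a gene's group means had a median of 0.89 in the first run, from 0.25 to 1.71, with 31 of 74 genes at 1 or more. In the second run, with more groups and 2 arrays in each, the median was 1.72, from 0.54 to 3.66, with 63 of 72 at 1 or more. Mrps28, Mrps30 and Mrps33 had the narrowest ranges of the first run, and all 17 arrays of Mrps30 lay between 11.32 and 11.80. Mrps30 sits in the large subunit in structures of the mammalian ribosome, in spite of its symbol. Mrpl3, whose bacterial counterpart reaches toward the catalytic centre, Mrpl42 and Mrps23 had the narrowest of the second run, and Mrpl3 held 9.98 to 10.89 on its 22 arrays.

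The paralogues of a single bacterial small-subunit protein moved differently between P2 and P15. Mrps18a was at 8.50 and 8.52 in P2 and at 7.44 and 7.21 in P15 (difference -1.19, SE 0.29, adjusted p = 0.00801), Mrps18b at 11.24 and 11.36 and then 9.75 and 9.75 (difference -1.55, SE 0.21, adjusted p = 0.000194), and Mrps18c at 10.91 and 11.05 and then 10.67 and 10.62. The first pair did not overlap between passages and was called, and Mrps18c was not called, though the difference between the paralogues was not tested. Other members of known role differed in pattern. Mrpl37 was highest on the 3 ESC arrays of the first run, at 11.69, 11.57 and 11.69, against 10.34 to 11.39 on all other arrays. Mrps5, next to the decoding site, was at 8.24, 7.96 and 8.05 in ICM-BALB/c, 7.28 and 7.44 in BO-3 and 9.06, 8.38 and 8.63 in the ESCs, all 3 of which were above the other arrays. Mrps27, which carries RNA-binding repeats, was at 7.13, 6.54 and 6.70 in the ESCs and at 5.40 to 6.52 elsewhere in that run. Mrpl11, at the base of the stalk, was at 6.06 to 6.18 in BO-7 and 7.07 to 7.53 in the ESCs. Mrpl45, near the tunnel exit at the inner membrane, was low, detected on 13 of 17 arrays in the first run and 9 of 22 in the second. Its highest group mean in the second run was in P15, at 5.71 and 5.78.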

How the data were processed

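Total RNA of mouse ICMs, outgrowths and ESCs, amplified in 2 rounds per the study's methods, was measured on Illumina bead arrays, 18 WG-6 arrays in the first run and 24 MouseRef-8 arrays in the second. The authors deposited probe intensities as read by GenomeStudio, without background correction or normalization, with a detection p-value for each probe and array, and a table of processed log2 values made with limma (versions not given in the sources used here). The deposited log2 values are neqc output less a constant of each array, with a median of 0.27 to 0.28 in the first run and 0.37 to 0.38 in the second, as a recomputation from the intensities matched them with r of 0.9999649 or more. They served as an alternative here.

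The intensities were background corrected by normexp with the detection p-values (offset 16), quantile normalized over the arrays of a fit and log2 transformed with limma 3.58.1 in R 4.3.3. Background and quantile steps assume that arrays share 1 distribution of intensities, so a shift of most genes would be removed. Of 45281 WG-6 probes 34885 had 1 gene symbol, 18 several and 10378 none in the annotation table, and of 25697 MouseRef-8 probes 23978, 0 and 1719. Probes with several or no symbol were not named. A probe was kept where it was detected on at least 2 arrays, and 1 kept probe, the brightest on average, stood for each gene. Linear models over all groups of a run (17 arrays, 22 arrays, and 24 arrays for the comparison of the BALB/c and hybrid ICMs) were fitted with lmFit and eBayes, with p-values adjusted over all genes tested by the Benjamini-Hochberg method. With 2 or 3 arrays per group, their number limits the precision. Where a gene was detected on no array of the dimmer group, a lower bound of the fold was set against the lowest detected signal of each array. The fits were tested on simulated data.

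The members, the gene lists and the tests were chosen with earlier results of these data known. In each comparison up to 3 called rises and 3 called falls were named, of genes without overlap between the groups' arrays and with the brighter group detected throughout, along with genes of widest and narrowest range, genes picked for their role, and called genes of the other lists. Replicates are separate pools or cultures as labelled. Alternatives were the background step and offset, median centring, the filter, the probe rule, array weights, the arrays fitted, the limits, the replicate number as a block, the deposited table, the array of BO-3 left out, and each array left out in turn. Promoter windows were read from the RefSeq table of GRCm38.p6 with Python 3.11.15, and figures drawn with matplotlib 3.10.9.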

Additional observations from a re-analysis of the deposited data

Results flagged for a closer look

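The change from day 1 to day 3 differed between R2i and SB431542 without PD0325901 for 6 of the 72 genes by the interaction term of the limma fit. Of the members 2.78% were called higher and 5.56% lower, against 5.8% and 4.37% of all genes, so the count does not set the members apart. The difference (R2i less SB) was 2.26 for Mrps2 (SE 0.46, adjusted p = 0.00295) and 1.16 for Mrps30 (SE 0.28, adjusted p = 0.00928), -2.31 for Mrps16 (SE 0.44, adjusted p = 0.00201), -2.01 for Mrpl53 (SE 0.46, adjusted p = 0.00597), -1.84 for Mrps21 (SE 0.42, adjusted p = 0.00677) and -1.47 for Mrps6 (SE 0.36, adjusted p = 0.00936). Mrps6 was outside the rule for named genes and chosen after its values were seen. Mrps2 had arrays at 7.70 and 8.19 in IO-1, 8.29 and 8.30 in IO-3, 8.94 and 8.66 in SBIO-1 and 7.07 and 6.70 in SBIO-3. Under median centring Mrps16 (0.80), Mrpl53 (0.60) and Mrps21 (1.15) had the opposite sign. With 1 of the 8 arrays left out in turn, Mrps30 and Mrps21 were never called, Mrpl53 was called only without IO-1 replicate 2, Mrps2 was not called without IO-1 replicate 1, IO-3 replicate 1, IO-3 replicate 2 or SBIO-1 replicate 1, and Mrps16 was not called without IO-1 replicate 1, IO-3 replicate 1 or SBIO-1 replicate 2. Mrps6 was not followed in this way. The cause of these differences was not tested.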

How the results depend on the processing

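Over 16 comparisons and all alternatives that gave a value, 211 of 238 medians of the members moved by less than the spread between replicates, 18 moved by more and 9 that had lain beyond that spread turned sign. Among the 18, SBIO-3 against SBIO-1 turned sign too, from 0.10 to -1.62. Of 850 values of named genes, 677 kept direction and call, 158 kept direction but lost the call, and 15 turned sign, all under median centring. The 677 include the adjusted p limit alone and, in the second run, the looser limit of 0.05, which could not remove a call. Median centring aligns the arrays on probes that were mostly not detected, and the cause of its effect was not tested. It gave medians of -0.059 (BO-3 against ICM-BALB/c), -0.053 (BO-9 against BO-3), 0.16 (ESC-BALB/c against BO-9), -0.026 (ESC-BALB/c against ICM-BALB/c), 1.93 (IO-0.5 against ICM-hybrid), 0.11 (IO-1 against IO-0.5), 0.37 (IO-5 against IO-1), 0.38 (P2 against IO-5), 0.36 (P15 against IO-5), -0.037 (P15 against P2), 2.67 (P15 against ICM-hybrid), -0.98 (IO-1 against SBIO-1), 1.49 (IO-3 against SBIO-3), -1.62 (SBIO-3 against SBIO-1), 2.44 (interaction) and 2.48 (BALB/c against hybrid ICM). It turned Mrpl34 to 0.78 in IO-0.5 against ICM-hybrid, Mrpl58, Mrpl30 and Mrpl36 to 0.35, 1.34 and 1.38 in P15 against ICM-hybrid, Mrps16 and Mrps28 to 0.32 and 0.45 in IO-3 against SBIO-3, Mrpl53, Mrps21 and Mrps16 to -0.024, -0.30 and -0.38 in SBIO-3 against SBIO-1 and to 0.60, 1.15 and 0.80 in the interaction, and Mrps16, Mrps12 and Mrpl54 to 0.91, 1.32 and 1.37 between the ICMs. With BO-3 replicate 1 the median of BO-9 against BO-3 was 0.097, and P15 against ICM-hybrid gave -0.55 with no background correction and -0.57 with an offset of 50. With single arrays left out the medians ran from 0.19 to 0.36 in ESC-BALB/c against BO-9, from -0.50 to -0.17 in IO-5 against IO-1, from 0.040 to 0.33 in P2 against IO-5, from -0.46 to -0.23 in P15 against IO-5, from -0.84 to -0.63 in P15 against ICM-hybrid and from -0.38 to -0.16 between the ICMs. Array weights gave 3 higher and 22 lower in P15 against P2, 2 higher and 15 lower in P15 against IO-5, 0 and 2 in IO-3 against SBIO-3, 1 and 1 in IO-0.5 against ICM-hybrid, and 3 and 3 between the ICMs. With only the arrays compared in the fit, P15 against P2 had 3 higher and 22 lower, P15 against ICM-hybrid 2 and 21 and the interaction 2 and 3, the other comparisons of the second run 0, and those of the first run kept their counts.

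With the replicate number as a block, BO-3 against ICM-BALB/c had 0 higher and 13 lower, P15 against IO-5 1 and 12, P15 against ICM-hybrid 9 and 31, SBIO-3 against SBIO-1 3 and 1 and the interaction 1 and 4, with medians of -0.57, -0.23, -0.70, 0.10 and -0.48. The counts of the other comparisons did not change. Same-numbered arrays deviated together in 12 of 40 pairs in the first run and 26 of 110 in the second (correlation over 0.1, from -0.30 to 0.39 and -0.48 to 0.48). Whether some of them share more than a number cannot be told from this. The slide as a block was not run, since the sources used here give no slide. The dim ICM-hybrid arrays limit what can be read near background.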
